A study of Rattus norvegicus with 16 samples.

Results

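The levels of 10 genes of the receiving side of the synapse were followed in cortex and hippocampus of old rats fed curcumin or control chow. These are the scaffold genes Shank1, Shank2, Shank3, Dlg4 and Dlgap1, the adhesion genes Nlgn1, Nlgn2 and Nlgn3, and Srcin1 and Whrn, which code for adaptor proteins. Members were taken by name, as the transcript clusters whose annotation gives exactly that gene symbol, and each of the 10 genes had 1 such cluster among the 27342 clusters on the array, of which 15097 carry exactly 1 symbol. The rats were male Sprague-Dawley animals, given as 15 months old in the labels. Each array carried RNA pooled from the tissue of 3 rats of a group, with 6 rats a group. The 8 groups of 2 arrays were cortex after 12 weeks on curcumin and on control chow, cortex after 6 weeks on curcumin and on control chow, and the same 4 groups in the hippocampus. Each duration had its own animals, so duration and cohort cannot be told apart.

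Glutamate synapses of cortex and hippocampus carry a dense plate of proteins under the receiving membrane, the postsynaptic density. Its scaffold is built in layers: PSD-95 (Dlg4) holds glutamate receptors and adhesion proteins at the membrane, GKAP (Dlgap1) binds PSD-95 from below, and the SHANK proteins bind GKAP and link it to Homer and the actin cytoskeleton. Neuroligins span the membrane and bind neurexins on the sending cell, with neuroligin-1 found mainly at excitatory synapses, neuroligin-2 mainly at inhibitory ones and neuroligin-3 at both. Srcin1 codes for p140Cap, an adaptor of dendritic spines that restrains the kinase Src, and Whrn for whirlin, a PDZ scaffold best known from the hair cells of the ear and also described as a partner of the synaptic scaffold CASK.

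All values are deposited log2 signals after robust multi-array averaging (RMA), a scale on which a difference of 1 is a doubling, and levels of different genes cannot be set against each other on it. The 16 arrays had medians between 6.35 and 6.44, and arrays of a group correlated at 0.990 to 0.996. The hippocampal label held for the granule cell gene Prox1, at 5.71 to 6.81 in cortex and 7.31 to 8.07 in hippocampus. The 2 arrays of a group are called biological replicates in the labels, whereas the methods describe duplicate arrays of each RNA sample, so the spread behind the p-values may be technical. Arrays of 3 groups stood apart in markers of neighbouring tissue. The mean log2 level of 6 olfactory bulb genes was 6.98 and 8.11 on the cortical control arrays after 6 weeks and 6.395 to 6.747 on the other 14 arrays. That of 6 choroid plexus genes reached 8.27 on 1 curcumin array and 6.604 and 8.81 on the control arrays of the hippocampus after 6 weeks, and lay between 5.70 and 6.10 on the other 13 arrays.

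After 12 weeks, 5 of the 10 genes rose in the cortex of curcumin-fed rats: Srcin1, Nlgn2, Shank1, Whrn and Shank2, by 1.40-fold to 1.57-fold. None fell. By the study's fold rule (at least 1.5-fold or at most 0.66-fold, no test) 3 were called, Srcin1, Nlgn2 and Shank3, with a share over all clusters of 0.827%. Whrn, which the study lists, stood at 1.48-fold on the deposited values and was not called by this rule. Over all clusters, 1.64% were called higher and 1.59% lower in this comparison, where a call means an adjusted p under 0.05 in limma. The median difference (curcumin minus control) over the 10 genes was 0.53 on the log2 scale, and over all clusters 0.00060. The curcumin arrays lay wholly above the control arrays in 7 genes and wholly below them in 2, with a share over all clusters of 22.3% above and 22% below. Of the 10 genes, 4 (Nlgn2, Whrn, Shank3 and Srcin1) stand in the study's own list for this tissue and duration, drawn from these arrays, and are not independent evidence of a direction. Among the other 6, Shank1 and Shank2 passed and the median was 0.098. All 10 genes were chosen with earlier results of these data known, so these 6 are not independent evidence either. In bulk tissue, fewer cells of a type and less RNA per cell cannot be told apart.

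**Figure D1:**
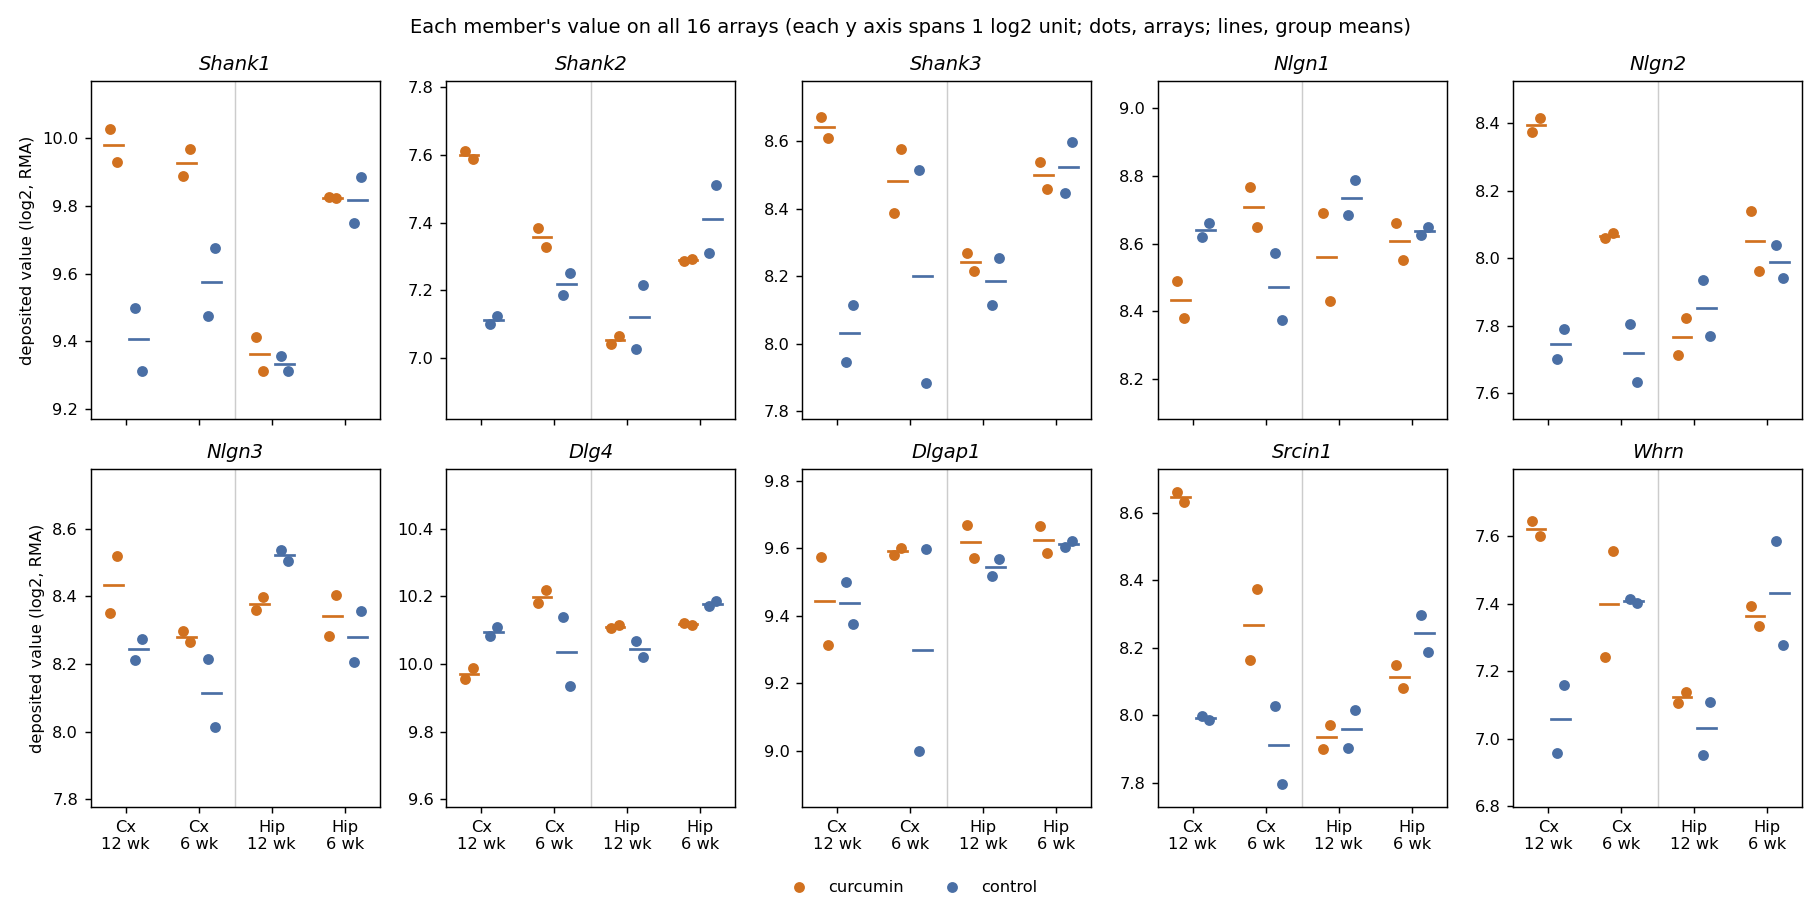
Deposited log2 value of each of the 10 genes (y axis, each spanning 1 log2 unit) on all 16 arrays, grouped by tissue and weeks on the diet (x axis), with curcumin in orange and control in blue. Dots are arrays and lines group means. After 12 weeks in the cortex the curcumin dots of Shank1, Shank2, Shank3, Nlgn2, Nlgn3, Srcin1 and Whrn lie above both control dots, and those of Nlgn1 and Dlg4 below them.

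The SHANK genes code for the deepest layer of the scaffold. Shank1 read 10.03 and 9.93 in cortex after 12 weeks on curcumin, against 9.50 and 9.31 on control chow. Its difference was 0.57 with a standard error (SE) of 0.087 (limma adjusted p = 0.00732). Both curcumin arrays were higher than either control array, and they were the highest and the third highest of all 16 arrays for this gene. Shank2 read 7.61 and 7.59 on curcumin, against 7.10 and 7.12 on control chow, a difference of 0.49 (SE 0.076, limma adjusted p = 0.00845). Here the arrays of a diet lay far closer to each other than the diets did. Shank3 read 8.67 and 8.61 on curcumin, against 7.95 and 8.11 on control chow. Its difference of 0.61 was as large as that of Shank1, but the SE of 0.16 left it short of the threshold (limma adjusted p = 0.0645). The widest gap between arrays of a group for Shank3 was that of the cortical control arrays after 6 weeks, at 8.51 and 7.88.

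The neuroligin genes did not move together. Nlgn2, whose protein organises inhibitory synapses, read 8.37 and 8.41 in cortex after 12 weeks on curcumin, against 7.70 and 7.79 on control chow. The difference of 0.65 (SE 0.086, limma adjusted p = 0.00537) was 1.57-fold and placed Nlgn2 at rank 63 from the top of 27342 clusters. Nlgn3 read 8.35 and 8.52 on curcumin, against 8.21 and 8.28 on control chow, a difference of 0.19 (SE 0.085, limma adjusted p = 0.312). Nlgn1, of excitatory synapses, was the member with the lowest difference. It read 8.49 and 8.38 on curcumin, against 8.62 and 8.66 on control chow, a difference of -0.21 (SE 0.096, limma adjusted p = 0.343). Its 95% confidence interval ran between -0.42 and 0.0035, that of Nlgn2 between 0.46 and 0.84, so these intervals do not meet.

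Both adaptor genes rose. Srcin1 read 8.66 and 8.63 in cortex after 12 weeks on curcumin, against 7.999 and 7.98 on control chow, a difference of 0.66 (SE 0.090, limma adjusted p = 0.00576). This was the largest of the 10, at rank 59 from the top of all clusters, and the 4 values fell into 2 tight pairs. Whrn read 7.64 and 7.60 on curcumin, against 6.96 and 7.16 on control chow, a difference of 0.56 (SE 0.12, limma adjusted p = 0.0296). Its control arrays lay farther apart than its curcumin arrays, and its call was lost when any one of these 4 arrays was left out.

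The membrane layer and its linker were not among the genes that rose. Dlg4, which codes for PSD-95, read 9.95 and 9.99 in cortex after 12 weeks on curcumin, against 10.08 and 10.11 on control chow. Both curcumin arrays were the lower ones, by 0.12 (SE 0.065, limma adjusted p = 0.425). Dlgap1, the link between PSD-95 and the SHANK proteins, read 9.57 and 9.31 on curcumin, against 9.50 and 9.38 on control chow, so its arrays overlapped. Its difference of 0.0050 had an interval between -0.33 and 0.34, which is wide enough to hold a change in either direction (limma adjusted p = 0.996).

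**Figure D2:**
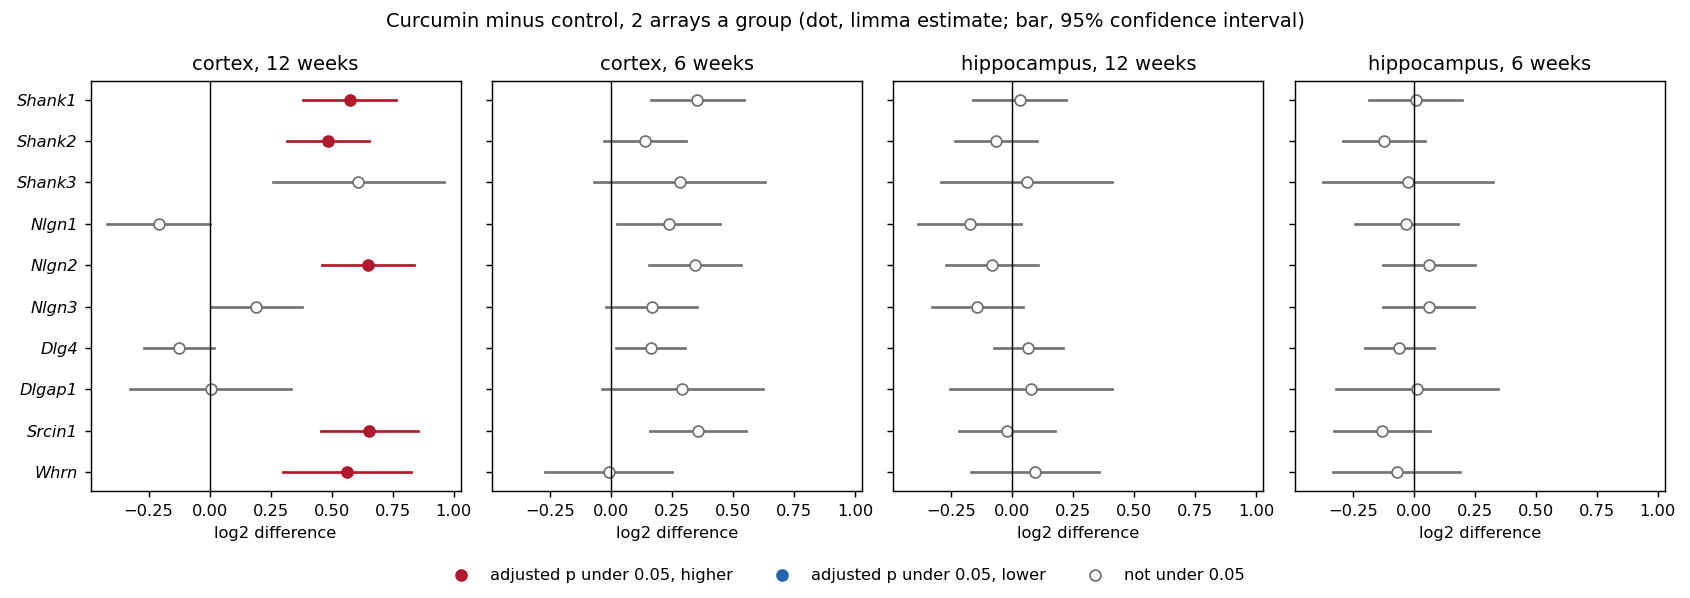
Difference between curcumin and control (x axis, log2) for each of the 10 genes (y axis) in cortex and hippocampus after 12 and 6 weeks, as estimated by limma from 2 arrays a group. Bars are 95% confidence intervals and filled dots mark an adjusted p under 0.05, which only the cortex after 12 weeks holds, with 5 genes between 0.49 and 0.66.

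These calls rest on the spread shared by all 16 arrays: a fit of the 8 cortical arrays alone called 0 of the 10 genes (adjusted p from 0.0589 for the strongest), and only 22 clusters in all. Without the first cortical control array after 12 weeks all 5 calls were lost, with limma adjusted p between 0.0504 and 0.235, and without the second 3 remained (Nlgn2, Shank2 and Srcin1). Neuronal markers did not follow the 5 genes. The mean log2 level of 10 neuronal genes was 10.35 to 10.42 in cortex on curcumin and 10.38 to 10.39 on control chow, with a median difference of -0.026 and 0 of 10 called. The 8 astrocyte genes were all negative (median -0.24), Mlc1 and Aldoc fell, and their mean level was 9.76 to 10.06 on curcumin, against 10.14 to 10.16 on control chow. The 9 oligodendrocyte genes were also all negative (median -0.27), with 0 called and overlapping levels of 8.67 to 9.15 on curcumin and 8.91 to 9.43 on control chow. Of the 10 microglial genes 7 were positive (median 0.14, 0 called), with levels of 7.26 to 7.70 on curcumin and 7.24 to 7.44 on control chow. The part of these marker differences in the values of the 10 genes was not tested.

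Promoter sequence was at hand for 7 of the 10 genes in the RefSeq table of the rat assembly GRCr8, which holds windows running from 250 bases before to 50 bases after a transcription start. Among the 5 genes that rose only Nlgn2 and Whrn had a window, and these are shown beside that of Dlg4, which did not rise. Capitals mark GC boxes (GGGCGG, either strand), a motif present in 33.1% of the 33469 rat windows of this length.
Nlgn2 (chr10:55056529-55056828, minus strand): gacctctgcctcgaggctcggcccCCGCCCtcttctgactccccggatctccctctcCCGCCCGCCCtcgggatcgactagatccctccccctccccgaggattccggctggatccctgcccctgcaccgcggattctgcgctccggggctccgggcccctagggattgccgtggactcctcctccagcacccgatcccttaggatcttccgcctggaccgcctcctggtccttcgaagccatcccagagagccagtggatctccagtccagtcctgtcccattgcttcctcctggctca
Whrn (chr5:81927332-81927631, minus strand): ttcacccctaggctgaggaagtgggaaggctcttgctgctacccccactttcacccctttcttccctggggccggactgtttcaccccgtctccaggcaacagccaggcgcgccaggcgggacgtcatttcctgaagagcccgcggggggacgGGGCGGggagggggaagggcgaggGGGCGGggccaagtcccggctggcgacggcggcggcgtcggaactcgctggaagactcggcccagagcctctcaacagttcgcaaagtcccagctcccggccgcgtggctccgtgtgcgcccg
Dlg4 (chr10:55239534-55239833, plus strand): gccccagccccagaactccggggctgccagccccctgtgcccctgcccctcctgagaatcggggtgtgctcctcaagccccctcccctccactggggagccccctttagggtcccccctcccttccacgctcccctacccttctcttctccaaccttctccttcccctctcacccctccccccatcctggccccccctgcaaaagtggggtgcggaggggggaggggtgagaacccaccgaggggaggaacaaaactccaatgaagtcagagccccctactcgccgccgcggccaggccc
The Nlgn2 window held 3 GC boxes, 2 of them overlapping and all on the opposite strand, and was 67.3% G and C. The Whrn window held 2 and was 69.7% G and C. The Dlg4 window held 0 at 68.7% G and C, and so did those of Shank3, Nlgn1, Nlgn3 and Dlgap1. The cAMP response element (TGACGTCA, 1.83% of windows) and the core of the antioxidant response element (TGACNNNGC, either strand, 12.1% of windows) were found in none of the members' windows. A match or its absence describes these letters only.

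After 6 weeks, 9 of the 10 genes lay higher in the cortex on curcumin, by up to 0.36, but none passed limma, where 0.0987% of all clusters were called higher and 0.00731% lower. At an unadjusted p under 0.05 there were 5 members (12% of all clusters). The median difference was 0.26, and in 7 genes both curcumin arrays lay above both control arrays, with a share over all clusters of 18.9%, and in none below them (17.4%). Srcin1 read 8.16 and 8.37 on curcumin, against 8.03 and 7.80 on control chow (difference 0.36, SE 0.090, limma adjusted p = 0.145). Shank1 read 9.89 and 9.97 on curcumin, against 9.48 and 9.67 on control chow (difference 0.35, SE 0.087, limma adjusted p = 0.139). Nlgn2 read 8.06 and 8.07 on curcumin, against 7.81 and 7.64 on control chow (difference 0.35, SE 0.086, limma adjusted p = 0.144). In all 3 genes the curcumin arrays stood above the control arrays. Whrn was the exception, at 7.24 and 7.56 on curcumin and 7.41 and 7.40 on control chow, so that its arrays overlapped (difference -0.0088).

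Marker lists also differed between the diets in cortex after 6 weeks. All 10 neuronal genes were positive (median 0.26, 0 called), with mean levels of 10.27 to 10.50 on curcumin and 10.12 to 10.21 on control chow. The 9 oligodendrocyte genes were all negative (median -0.81), as were the 10 microglial genes (median -0.38) and the 6 olfactory bulb genes (median -1.08), again with 0 called. Without the second control array, the one with the highest olfactory bulb level, the median of the 10 members was 0.15, Shank3 turned to -0.034 and 0 were called. Without the first control array 2 were called, Shank3 (0.60, limma adjusted p = 0.0208) and Srcin1 (0.47, limma adjusted p = 0.0295). The part of the marker differences in these values was not tested.

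Whether the cortical effect of the diet differed between 12 and 6 weeks was tested as a difference of differences, and none of the 10 genes passed limma, where 0.446% of all clusters were called higher and 1.02% lower. At an unadjusted p under 0.05 there were 6 members, beside 14.7% of all clusters. Whrn had the largest value, 0.57 (SE 0.17, limma adjusted p = 0.122), with curcumin arrays that overlapped the control arrays after 6 weeks and lay above them after 12 weeks. Nlgn1 had the lowest, -0.44 (SE 0.14, limma adjusted p = 0.138), with curcumin above control after 6 weeks (8.77 and 8.65, against 8.57 and 8.37) and below it after 12 weeks. Dlg4 ran the same way, at -0.29 (SE 0.092, limma adjusted p = 0.152). Its cortical values after 6 weeks were 10.18 and 10.22 on curcumin and 10.14 and 9.94 on control chow. For Srcin1, Nlgn2 and Shank1 the differences between durations were 0.30, 0.30 and 0.22, and limma adjusted p ran between 0.264 and 0.461. Of the 10 neuronal genes 9 were negative in this comparison (median -0.27, 0 called). All 9 oligodendrocyte genes (median 0.64, 0 called) and 5 of 6 olfactory bulb genes (median 0.82, 0 called) were positive. So were 8 of 10 microglial genes (median 0.48, 1 called higher). The part of these markers in the values of the 10 genes was not tested.

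In the hippocampus none of the 10 genes was called between the diets, though some intervals were wide, as for Shank3 after 12 weeks (-0.29 to 0.41). After 12 weeks 5 were positive and 5 negative, the median was 0.0029, and limma called 0 of the 10 (0.00366% of all clusters higher and 0% lower), with 0 members at an unadjusted p under 0.05 (5.11% of all clusters). Nlgn2 read 7.71 and 7.82 on curcumin and 7.93 and 7.77 on control chow, and Srcin1 7.90 and 7.97 on curcumin and 7.90 and 8.01 on control chow. The arrays of both genes overlapped. Shank1 read 9.41 and 9.31 on curcumin and 9.35 and 9.31 on control chow. Its interval, between -0.16 and 0.22, lies wholly below its cortical interval of 0.38 to 0.77. Curcumin arrays were wholly above control arrays in 2 genes, Dlg4 and Dlgap1 (12.7% of all clusters), and wholly below in 1, Nlgn3 (14.7%), at 8.36 and 8.40 on curcumin, against 8.54 and 8.51 on control chow. Of the 10 neuronal genes 8 were negative (median -0.11, 0 called), with mean levels of 10.35 to 10.43 on curcumin and 10.52 to 10.54 on control chow. Of the 9 oligodendrocyte genes 8 were positive (median 0.15, 0 called). The part of these markers in the values of the 10 genes was not tested.

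After 6 weeks limma called 0 of the 10 in the hippocampus (0% of all clusters in either direction), 0 members had an unadjusted p under 0.05 (2.03% of all clusters), and the median was -0.027. Curcumin arrays lay wholly below control arrays in 3 genes, Shank2, Dlg4 and Srcin1 (17.7% of all clusters), and wholly above in 0 (17.3%). Shank2 read 7.29 and 7.29 on curcumin, against 7.31 and 7.51 on control chow, and Srcin1 8.15 and 8.08 on curcumin, against 8.30 and 8.19 on control chow. These gaps were small, -0.12 and -0.13, with intervals that hold 0. All 6 choroid plexus genes were negative after 6 weeks (median -0.45, 0 called), and their part in the values of the 10 genes was not tested. The change of the hippocampal effect between 12 and 6 weeks lay between -0.21 and 0.16 over the 10 genes, with 0 called (0% of all clusters in either direction) and 0 at an unadjusted p under 0.05 (3.43% of all clusters).

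The diet effect after 12 weeks was larger in cortex than in hippocampus for Nlgn2, by 0.73 (SE 0.12, limma adjusted p = 0.0472), the only one of the 10 genes to pass (0.117% of all clusters higher and 0.0731% lower). Srcin1 followed with 0.68 (SE 0.13, limma adjusted p = 0.0681), Shank2 with 0.56 (SE 0.11, limma adjusted p = 0.0694) and Shank1 with 0.55 (SE 0.12, limma adjusted p = 0.110). The call of Nlgn2 was lost without any one of the 8 arrays, with adjusted p between 0.0855 and 0.187. After 6 weeks this difference was positive in all 10 genes, with a median of 0.27, but 0 were called (0% of all clusters in either direction) and 5 had an unadjusted p under 0.05, beside 5.48% of all clusters. Srcin1 led there with 0.49 (SE 0.13, limma adjusted p = 0.530). These differences reuse the arrays of the diet effects above, and the tissues of a duration come from the same rats. Markers differed here as well. After 6 weeks 9 of 10 neuronal genes were positive (median 0.22, 0 called). All 9 oligodendrocyte genes (median -0.84), all 6 olfactory bulb genes (-1.05) and 9 of 10 microglial genes (-0.40) were negative, with 0 called. After 12 weeks all 10 neuronal genes were positive (0.12) and all 9 oligodendrocyte genes negative (-0.47), with 0 called. The part of these markers in the values of the 10 genes was not tested.

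A second pattern lay between the 12-week and 6-week cohorts rather than between the diets. In hippocampus on control chow, 8 of the 10 genes read lower on both arrays after 12 weeks than on both after 6 weeks (21.3% of all clusters), and 2 higher, Nlgn1 and Nlgn3 (26%). Shank1 alone passed limma, which called 1.5% of all clusters lower and 2.77% higher. It read 9.35 and 9.31 after 12 weeks, against 9.75 and 9.89 after 6 weeks, a difference of -0.49 (SE 0.087, limma adjusted p = 0.0144). In a comparison added after the values were seen, the curcumin arrays gave the same order. They read 9.41 and 9.31 after 12 weeks, against 9.83 and 9.82 after 6 weeks (difference -0.46, limma adjusted p = 0.0240, 0.87% of all clusters lower). All 4 hippocampal arrays after 12 weeks thus read below all 4 after 6 weeks. Whrn (-0.40), Shank3 (-0.34), Shank2 (-0.29) and Srcin1 (-0.28) fell short on control chow, with limma adjusted p between 0.0587 for Shank2 and 0.305 for Shank3.

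**Figure D3:**
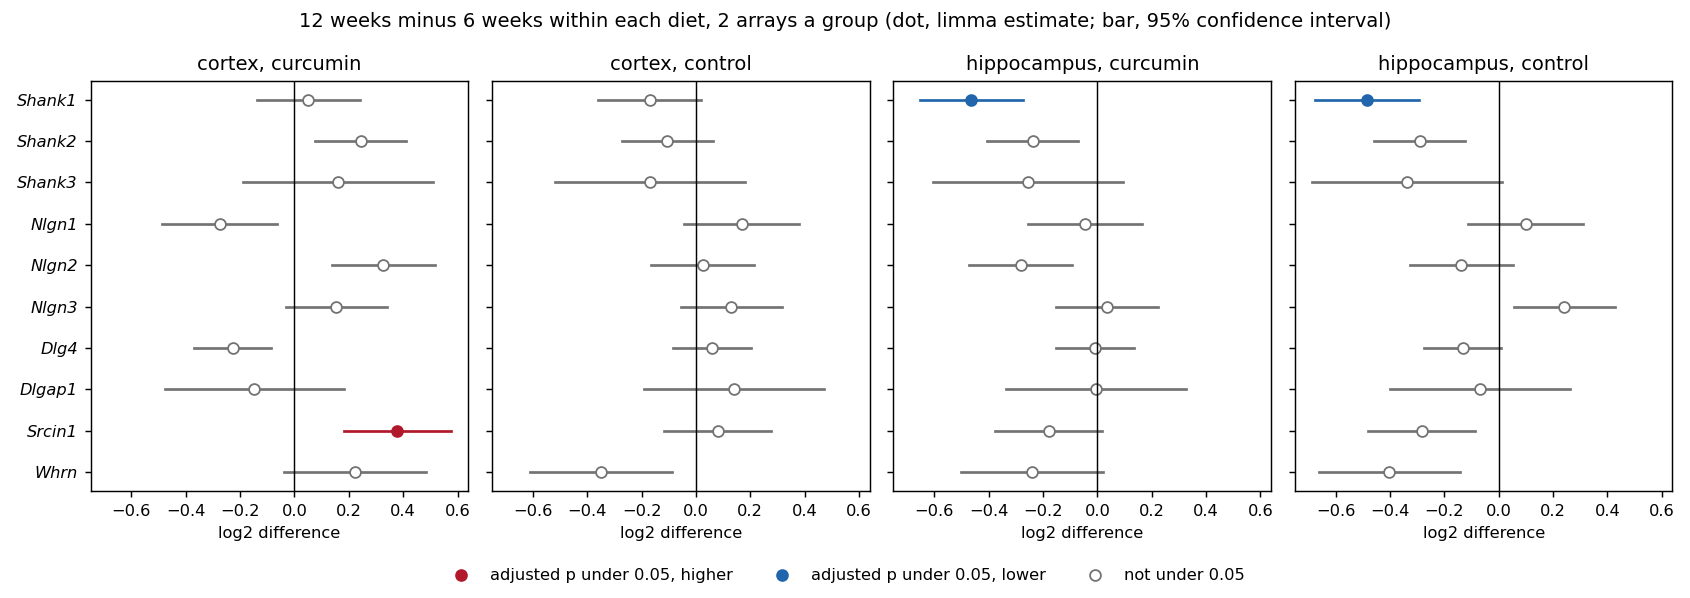
Difference between 12 and 6 weeks (x axis, log2) for each of the 10 genes (y axis), within each diet, in cortex and hippocampus, as estimated by limma from 2 arrays a group. The comparisons on curcumin were added after the values were seen. Bars are 95% confidence intervals and filled dots an adjusted p under 0.05: Shank1 lower in hippocampus on both diets, and Srcin1 higher in cortex on curcumin.

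The mean over both diets used 4 arrays against 4, the same arrays as the comparisons within each diet. It was added after the values were seen, as were the comparisons of 12 with 6 weeks on curcumin in both tissues. In hippocampus limma then called 5 members lower after 12 weeks (4.54% of all clusters lower and 6.3% higher). These were Shank1 at -0.47 (limma adjusted p = 0.00108), Whrn at -0.32 (limma adjusted p = 0.0323), Shank2 at -0.26 (limma adjusted p = 0.0101), Srcin1 at -0.23 (limma adjusted p = 0.0394) and Nlgn2 at -0.21 (limma adjusted p = 0.0495). Nlgn3 stood at 0.14 and Nlgn1 at 0.027, neither called. The call of Shank1 on control chow was lost without either 6-week array or without the second 12-week array (limma adjusted p between 0.0687 and 0.110). The 6 choroid plexus genes were all lower after 12 weeks on control chow (median -1.88, 0 called), the array levels given above being the only high ones. Of the 10 neuronal genes 7 were positive there (median 0.14), and Syp, a gene of synaptic vesicles, was called higher. Over both diets, most glial markers were positive in hippocampus (12 minus 6 weeks): 9 of 9 oligodendrocyte genes (median 0.25, 0 called), 9 of 10 microglial genes (median 0.15, with Tmem119 and Cx3cr1 called) and 6 of 8 astrocyte genes (median 0.14, with Gja1 and Aldoc called). The part of the choroid plexus and of the glial markers in the values of the 10 genes was not tested. Because each duration is a cohort of its own, time on chow, age and cohort cannot be told apart.

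In the cortex on control chow none of the 10 genes passed limma between the durations, where 5.42% of all clusters were called higher after 12 weeks and 3.44% lower, and 1 member had an unadjusted p under 0.05, beside 23.4% of all clusters. That member was Whrn, at 6.96 and 7.16 after 12 weeks, against 7.41 and 7.40 after 6 weeks (difference -0.35, SE 0.12, limma adjusted p = 0.0960). Both of its control arrays after 12 weeks lay below both after 6 weeks, and these are the arrays its diet effect was measured against. On curcumin, in a comparison added after the values were seen, Srcin1 was higher after 12 weeks, at 8.66 and 8.63, than after 6 weeks, at 8.16 and 8.37 (difference 0.38, SE 0.090, limma adjusted p = 0.0471, 1.7% of all clusters higher). Over both diets, a mean that reuses these curcumin arrays, Srcin1 was the member called, at 0.23 (limma adjusted p = 0.0456, with 5.38% of all clusters higher and 3.89% lower). Srcin1 stood at 0.081 on control chow alone (SE 0.090, limma adjusted p = 0.675). On curcumin, Nlgn2 (0.33, limma adjusted p = 0.0685) and Dlg4 (-0.23, limma adjusted p = 0.0906) came next. Over both diets 9 of 10 neuronal markers were positive in cortex (median 0.090, with Syp and Eno2 called higher), and all 6 olfactory bulb genes were negative (median -0.45, with Pbx3 called lower). Of the 9 oligodendrocyte genes 7 were negative (median -0.36, 0 called). On control chow alone 9 of 10 neuronal genes were positive (median 0.24, 3 called higher). There 5 of 6 olfactory bulb genes (median -0.83, 1 called lower) and all 9 oligodendrocyte genes (median -0.57, 0 called) were negative. On curcumin alone the medians of the neuronal, olfactory bulb and oligodendrocyte lists were 0.050, -0.012 and -0.047, with 0 called. The part of these markers in the values of Srcin1 and Whrn was not tested. Where these comparisons use the control or curcumin arrays of a diet effect, they share that group's values with it.

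Averaged over diet and duration, the tissues differed little, but for Srcin1 this average joins gaps of opposite sign. Its group means were 8.65 in cortex and 7.93 in hippocampus after 12 weeks on curcumin, and 8.27 and 8.11 after 6 weeks. On control chow they were 7.99 and 7.96 after 12 weeks, and 7.91 and 8.24 after 6 weeks. Limma called 0 of the 10 genes between cortex and hippocampus, although it called 3.63% of all clusters higher in cortex and 6.05% lower, and 5 members had an unadjusted p under 0.05, beside 21.3% of all clusters. Srcin1 was 0.14 higher in cortex (SE 0.045, limma adjusted p = 0.0757) and Shank1 0.14 (SE 0.043, limma adjusted p = 0.0754). Shank1 spanned 9.31 to 10.03 over the 8 cortical arrays (median 9.78) and 9.31 to 9.89 over the 8 hippocampal arrays (median 9.58), so the tissues overlapped through nearly the whole range. Dlg4 had the narrowest range of the 10 genes in cortex, 9.94 to 10.22, and lay between 10.02 and 10.19 in hippocampus. The widest in cortex were those of Srcin1 (7.80 to 8.66) and Shank3 (7.88 to 8.67).

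Over the 16 arrays 6 of the genes had similar profiles. Among Shank1, Shank2, Shank3, Nlgn2, Srcin1 and Whrn, Pearson's r was positive for all 15 pairs, between 0.68 (Nlgn2 and Whrn) and 0.92 (Nlgn2 and Srcin1). Every pair that included Nlgn1, Nlgn3, Dlg4 or Dlgap1 had an r of 0.53 or less, the highest being Nlgn1 with Dlg4. Within the 8 cortical arrays Nlgn2 and Srcin1 gave 0.98, and within the 8 hippocampal arrays 0.70. The other 4 genes stood apart less evenly within a tissue. In cortex Nlgn3 gave 0.86 with Nlgn2, 0.84 with Srcin1 and 0.72 with Shank3, whereas in hippocampus these were -0.52, -0.75 and -0.68. In hippocampus Dlg4 gave 0.74 with Shank1 and 0.71 with Shank3, against -0.14 and 0.17 in cortex. These values describe 16 arrays that share tissues, diets and cohorts. The genes of the whole array closest to Srcin1 were Dusp8 (0.97), Gsk3a and Mapt (both 0.95), those closest to Nlgn2 were Pacs1, Atn1 (both 0.93) and Srcin1, and those closest to Shank1 were Rab11fip3, Kif21b and Cdc42bpb (all 0.92). Kif21b was also the closest to Shank2 (0.92), followed by Pacs1 (0.92) and Castor2 (0.91). Shank3 came closest to Pi4ka and Bace1 (both 0.89) and to Grin1 (0.87), and Whrn to Adar (0.91), Dip2c (0.90) and Kif1a (0.90). Over the same 16 arrays the closest gene was Cpsf2 for Dlg4 (0.91), Kpna2 for Nlgn1 (0.87), Zer1 for Nlgn3 (0.91) and Kcnj3 for Dlgap1 (0.88).

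**Figure D4:**
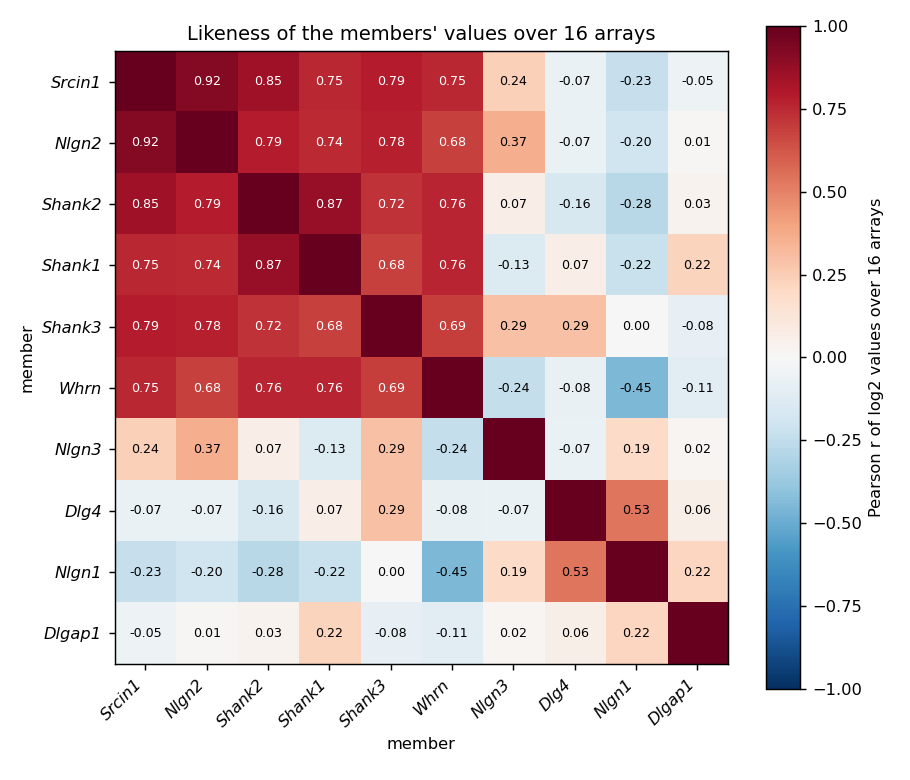
Pearson's r between the log2 values of each pair of the 10 genes over 16 arrays (colour, from -1 in blue to 1 in red, with the value in each cell). Srcin1, Nlgn2, Shank2, Shank1, Shank3 and Whrn form the block of 15 pairs between 0.68 and 0.92.

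Most listed partners of these proteins were not called in cortex after 12 weeks, where limma called 1.64% of all clusters higher and 1.59% lower. A listed gene counts as measured here only if a cluster carries its symbol alone. Of 29 listed scaffold partners, 24 were measured, and their median difference in cortex after 12 weeks was 0.047. Kalrn, which codes for kalirin, a protein of dendritic spines, rose by 0.47 (SE 0.074, limma adjusted p = 0.00898), and Abi1, an adaptor of the actin-regulating WAVE complex, fell by 0.44 (SE 0.075, limma adjusted p = 0.0116). Tiam1, a Rac exchange factor that the study also lists, stood at 0.59 without passing (limma adjusted p = 0.106). Of 28 adhesion partners 21 were measured (median 0.13), and 2 rose: Nrxn2, a neurexin and so a binding partner of the neuroligins, by 0.39 (SE 0.079, limma adjusted p = 0.0248), and Ptprs, a receptor phosphatase of the sending terminal, by 0.38 (SE 0.070, limma adjusted p = 0.0177). Slitrk4 stood at -0.33 (limma adjusted p = 0.0507).

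Among 13 of 14 listed glutamate receptor and auxiliary subunit genes the median was -0.014. Grin1, the obligatory subunit of NMDA receptors, rose by 0.44 (SE 0.075, limma adjusted p = 0.0116), while the auxiliary subunit gene Cacng3 stood at -0.51 (limma adjusted p = 0.123) and Grin2d at 0.23 (limma adjusted p = 0.348). Inhibitory synapses, where neuroligin-2 sits, were covered by 5 of 10 listed genes, with 0 called by limma and a median of 0.075. Gphn, which codes for the inhibitory scaffold gephyrin, stood at 0.16, Iqsec3 at 0.56 and the GABA-A receptor subunit gene Gabrb2 at -0.28. All 6 genes listed around Srcin1 were measured and 0 were called (median 0.15), with Src itself at 0.27 (limma adjusted p = 0.0993), its inhibitory kinase gene Csk at 0.24 and Crk at -0.18. Of 6 whirlin partners only Adgrv1 had a cluster with its symbol alone, at -0.083 (SE 0.27).

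**Figure D5:**
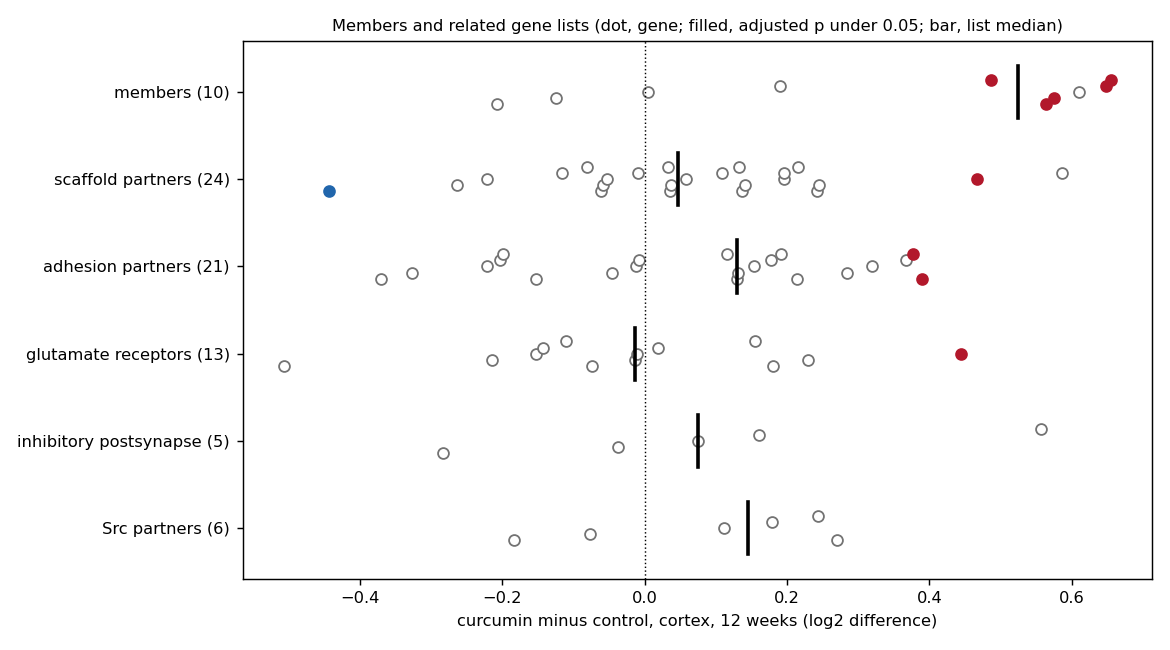
Difference between curcumin and control in cortex after 12 weeks (x axis, log2) for the 10 genes and for 5 lists of related genes (y axis, with the number measured). Each dot is a gene, a filled dot has a limma adjusted p under 0.05 (red higher, blue lower), and the bar is the list's median: 0.53 for the 10 genes and between -0.014 and 0.15 for the lists.

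Between curcumin and control in cortex after 6 weeks, and in hippocampus at either time, limma called none of the listed partners. Of all clusters it called 0.0987% higher and 0.00731% lower in that cortical comparison, and 0.00366% or fewer in either direction in hippocampus. The cortical diet effect was lower after 12 than after 6 weeks for Abi1 (-0.63, limma adjusted p = 0.0237), Slitrk4 (-0.63, limma adjusted p = 0.0295) and Cacng3 (-1.07, limma adjusted p = 0.0440). Of all clusters, 1.02% were called lower and 0.446% higher in that comparison. After 6 weeks in the cortex 19 of the 24 scaffold partners were positive (median 0.18), led by the PSD-95 relative Dlg3 at 0.37 (limma adjusted p = 0.0547), Camk2a at 0.46 (limma adjusted p = 0.101) and Dlgap4 at 0.24. Of the 21 adhesion partners 18 were positive (median 0.20), with Cadm3 at 0.41 (limma adjusted p = 0.0636). Grin2a (0.62) and Gria3 (0.51) led the receptor genes, with limma adjusted p of 0.101 and 0.107. In the hippocampus after 12 weeks the medians of the scaffold, adhesion, receptor and inhibitory lists lay between -0.050 and 0.077, and that of the genes around Srcin1 at -0.082.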

How the data were processed

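RNA of cortex and hippocampus, pooled from 3 rats of a group, was hybridised to 16 Affymetrix arrays, 2 for each of 8 groups. The authors deposited log2 values, for which their notes name RMA and the Affymetrix Expression Console, with versions not given in the sources used here. The paper names an exon array, whereas the clusters carry the annotation of a gene array, and which was used is not settled. No probe-level data were used, and the number of arrays limits the precision.

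Groups were taken from the labels. The values of all 27342 clusters (0 missing) were fitted by group means with limma 3.58.1 in R 4.3.3 (lmFit, contrasts.fit, default eBayes, and statmod 1.5.0 for the random block), which leaves 8 residual degrees of freedom and a prior of 3.12. The p-values are two-sided and received a Benjamini-Hochberg adjustment over the whole table within each of 11 contrasts and of 4 added after the values were seen. A cluster was called at an adjusted p under 0.05. Intervals are 95% confidence intervals of the fit. The same steps were tested on simulated data. Python 3.11.15, pandas 2.3.3 and matplotlib 3.10.9 were used for sequences and figures.

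Named are all 10 members, up to 3 genes of each list with the largest moderated t in a diet effect (lists of scaffold, adhesion, inhibitory, glutamate receptor, Src and whirlin partners, and markers of cell types and neighbouring tissues), and the 3 genes most like each member over 16 arrays, of which the first alone is named for some. The members and lists were chosen with earlier results of these data known. The study called genes by a fold rule (at least 1.5 or at most 0.66), which was run as an alternative. Other alternatives were a filter on clusters under the 25th percentile, quantile normalization, fewer arrays, a variance trend, array weights, replicate and pool blocks, and leaving out each array. A correction for GC content was not run, and promoter windows were at hand for only 7 of the 10 members (70%). Behavioural, cell proliferation and PCR measurements were not analysed here.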

Additional observations from a re-analysis of the deposited data

Results flagged for a closer look

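One difference between the diet effects of 2 groups passed its own test: that of Nlgn2 after 12 weeks, which was 0.73 larger in cortex than in hippocampus (limma adjusted p = 0.0472). The call was lost without any one of the 8 arrays (limma adjusted p between 0.0855 and 0.187), without dim clusters (0.0544), with the replicate block (0.0640) and with array weights (0.102).

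In the other cases all curcumin arrays lay on one side of control in one group and on the other side in the second, but the difference itself did not pass limma. In cortex between 12 and 6 weeks this held for Nlgn1 (-0.44, adjusted p = 0.138) and Dlg4 (-0.29, adjusted p = 0.152). In hippocampus between 12 and 6 weeks it held for Dlg4 (0.12, adjusted p = 0.99996). Between cortex and hippocampus after 12 weeks it held for Nlgn3 (0.33, adjusted p = 0.311) and Dlg4 (-0.19, adjusted p = 0.512). Between cortex and hippocampus after 6 weeks it held for Srcin1 (0.49, adjusted p = 0.530), Shank2 (0.26, adjusted p = 0.871) and Dlg4 (0.22, adjusted p = 0.867). Dlg4 thus appeared in all 4 pairs of groups, with its cortical arrays on curcumin above control after 6 weeks and below it after 12 weeks, and its hippocampal arrays the other way round. With 2 arrays a group, groups that do not overlap are common: 12.7% to 22.3% of all clusters in each direction of a diet effect. Groups of 2 arrays are too small for a test of single outlying arrays.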

How the results depend on the processing

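The count of 5 members called in cortex after 12 weeks was 5 or 6 in fits of all arrays under the filter on dim clusters, both quantile normalizations, the variance trend, array weights and the replicate and pool blocks. The 6th was Shank3, called under the first 5 of these settings (adjusted p between 0.0391 and 0.0480). The count was 0 on the 8 cortical arrays, where 22 clusters were called in all, 0 on the 4 arrays of the comparison, where 2 were, and 3 by the fold rule. Leaving out 1 array lowered the count each time. Whrn was lost in every such fit, Shank1 also without the second control array, and all members without the first. The call on Nlgn2 between tissues after 12 weeks became 0 calls without dim clusters (adjusted p = 0.0544) and with array weights (0.102), and 0 in all fits without 1 array (a range of 0 to 0). With either quantile normalization Srcin1 was called in its place (0.67, adjusted p = 0.0362 and 0.0373). Between cortex and hippocampus 2 members were called with quantile normalization over all arrays (Shank1 and Srcin1), 1 with that within each tissue, and 0 to 2 without 1 array. For 12 against 6 weeks on control chow, hippocampus gave 2 calls with either quantile normalization, 5 over both diets and 0 to 1 without 1 array, while cortex gave 1 on the curcumin arrays and 1 over both diets. In cortex after 6 weeks leaving out 1 array gave 0 to 2, and for the difference between durations 0 to 1 (Dlg4, without the first 6-week control array). The cause of these changes was not tested beyond the number of arrays in a fit. Signs turned in 5 cases, none of them called. Without 1 array, Dlgap1 in cortex ranged from -0.13 to 0.14 after 12 weeks (negative without the first curcumin or the second control array, -0.057) and from -0.0057 to 0.59 after 6 weeks, where Shank3 ranged from -0.034 to 0.60 and Whrn from -0.17 to 0.15.

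Same-numbered arrays did not deviate together throughout. Between the diets their deviations correlated at 0.011 in cortex and -0.43 in hippocampus after 12 weeks, and at -0.058 and 0.040 after 6 weeks. Between the tissues, which come from the same rats, they correlated at 0.15 (curcumin) and 0.16 (control) after 12 weeks, and at -0.15 (curcumin) and 0.12 (control) after 6 weeks, so not every pair exceeded 0.1 and the numbers were not taken to pair the arrays. With the replicate number as a block, 5 members were called in cortex after 12 weeks, and Nlgn2 no longer passed between tissues (0 calls, adjusted p = 0.0640). A crossed pairing of the hippocampal control arrays after 12 weeks, added after seeing the data, also gave 0 calls there. No other count of members changed with either block.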
